A study of Caenorhabditis elegans with 12 samples.

Results

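The 2 sets of wild-type embryos that stand beside the set-2 mutants were compared with each other here: the 3 wild-type libraries of experiment 2 (WT2) and the 3 of experiment 1 (WT1), 6 of the 12 libraries in the series. They were chosen by their labels alone, and no measured value entered the choice. By their labels both groups are the C. elegans strain N2 with no mutation and no treatment. Eggs were freed from young adults by hypochlorite, kept in salt buffer for 4 h at 20°C and frozen, so that most embryos were near the comma stage. Each library is thus a pool of many embryos, of all tissues and of a spread of ages. WT2 was prepared in parallel with set-2(zr2012), a genome-edited allele made in worms with a pha-1 mutation, and WT1 in parallel with set-2(tm1630), a deletion allele. Poly(A)-selected RNA was sequenced, and the files hold reads per gene. Genotype, medium, temperature and time are the same by label in both groups, so the comparison holds what differs between 2 runs of 1 protocol. The experiment, its date and any difference in worm culture cannot be told apart. The paper states that RNA came from 3 independent experiments per genotype, but the labels do not say whether replicates were separate cultures. The p-values therefore measure only the spread between these libraries.

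A C. elegans embryo first lives on RNA that the mother packed into the oocyte, then switches on its own early genes, divides fast, and stops most divisions before it bends into the comma shape. After that stage muscle, epidermis, pharynx and neurons mature, and the genes for contractile proteins, cuticle and the pharyngeal lining come on. Oocyte, early zygotic and DNA replication genes are therefore known as marks of young embryos, and pharyngeal muscle and synapse genes as marks of older ones. Embryos also answer chemicals, heat and low oxygen with their own gene sets, among them the glutathione S-transferases, which join glutathione to reactive compounds, and the targets of the hypoxia factor HIF-1.

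The libraries held 27796455, 21731533 and 42425059 counted reads in WT2, against 25370532, 42335422 and 53080992 in WT1. Of the 45410 rows, 16562 had at least 10 reads in at least 3 of the 6 libraries and were tested. The count per gene has a gap: 1738 genes have RefSeq accession rows of their own beside the row of their name, and 3.74 to 4.36% of the reads of a library lie on accession rows. Of 969 list genes found in the files, 244 were below the count minimum, and 150 of those had no read in any of the 6 libraries, 82 of them genes with accession rows. Genes that embryos of this stage are known to use, such as pha-4, unc-15 and sqt-3, were among those at 0, so a 0 in these files does not show that a gene is silent. Levels below are CPM, reads scaled to the size of the library after TMM normalisation. Gene order and chromosomes come from the RefSeq annotation WBcel235, which is not the build of the counts (ce10), so no coordinates are given. As to tissue, body-wall myosin (unc-54), the epidermal collagen dpy-7, pharyngeal myosin (myo-2), the gut factor elt-2 and the neuronal rab-3 were read in all 6 libraries, while yolk and sperm genes were scarce, with 2 of 5 vitellogenin rows and 2 of 30 major sperm protein rows above the minimum.

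Before any comparison, 2 of the libraries stood apart from the other wild types in the stretches of genes they had reads on. These were WT2 replicate 3 on chromosomes X and V, and WT1 replicate 1 on chromosome V. The labels or strain background of wild-type libraries are therefore in doubt. At one end of chromosome X, 35 neighbouring rows from CE7X_3.1 to T08D2.8 had together 3450, 2651 and 25 reads in WT2 replicates 1, 2 and 3, against 1267, 3912 and 6984 reads in WT1 replicates 1, 2 and 3. The library labelled WT2 replicate 3 was therefore nearly empty there (0.589 CPM), where its group mates had 122.0 and 124.1 CPM. The mutant libraries had 12, 28 and 23 reads in set-2(zr2012) and 4079, 1541 and 3495 reads in set-2(tm1630), so the near absence of reads in WT2 replicate 3 was shared by the mutant libraries of its own experiment. One of these genes, Y73B3A.9, had 498, 397 and 0 reads in WT2 and 128, 520 and 1169 reads in WT1. The F-box gene fbxa-222 had 406, 305 and 0 reads in WT2, against 157, 100 and 452 reads in WT1. The next well-read gene along the chromosome, R57.2, was read in every library (1454, 1086 and 3046 reads in WT2, against 1720, 4606 and 732 in WT1).

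On chromosome V the pattern was a different one. There 48 neighbouring rows from Y20C6A.1 to C38D9.13 had 0, 1 and 1975 reads in WT2, against 710, 0 and 5 reads in WT1. They were read in WT2 replicate 3 and WT1 replicate 1 and nearly or wholly empty in the other 4 wild-type libraries. A count of 0 allows up to 0.108 CPM in WT2 replicate 1 and 0.0709 CPM in WT1 replicate 2, for counting error only. All 6 mutant libraries were read there, with 1564 to 2130 reads in set-2(zr2012) and 1110 to 3596 in set-2(tm1630). Its most read gene, C38D9.2, had 0, 1 and 418 reads in WT2, against 265, 0 and 3 reads in WT1. The F-box gene fbxb-7 had 0, 0 and 541 reads in WT2, against 89, 0 and 0 reads in WT1. Both stretches were found after the values were seen, and carry no test. Whether a library was mislabelled, mixed with another strain or from a worm stock of its own was not tested, and every library stays in the group of its label below. WT2 replicate 3 and WT1 replicate 1 are called the doubted libraries, since they differ from the other 4 wild-type libraries on chromosome V. The name does not mean that the fault lies in them. The other 4 had almost no reads on these annotated genes, which all 6 mutant libraries had reads on. Which pattern belongs to N2 was not tested. Values without the doubted libraries are given beside the results they move.

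**Figure D1:**
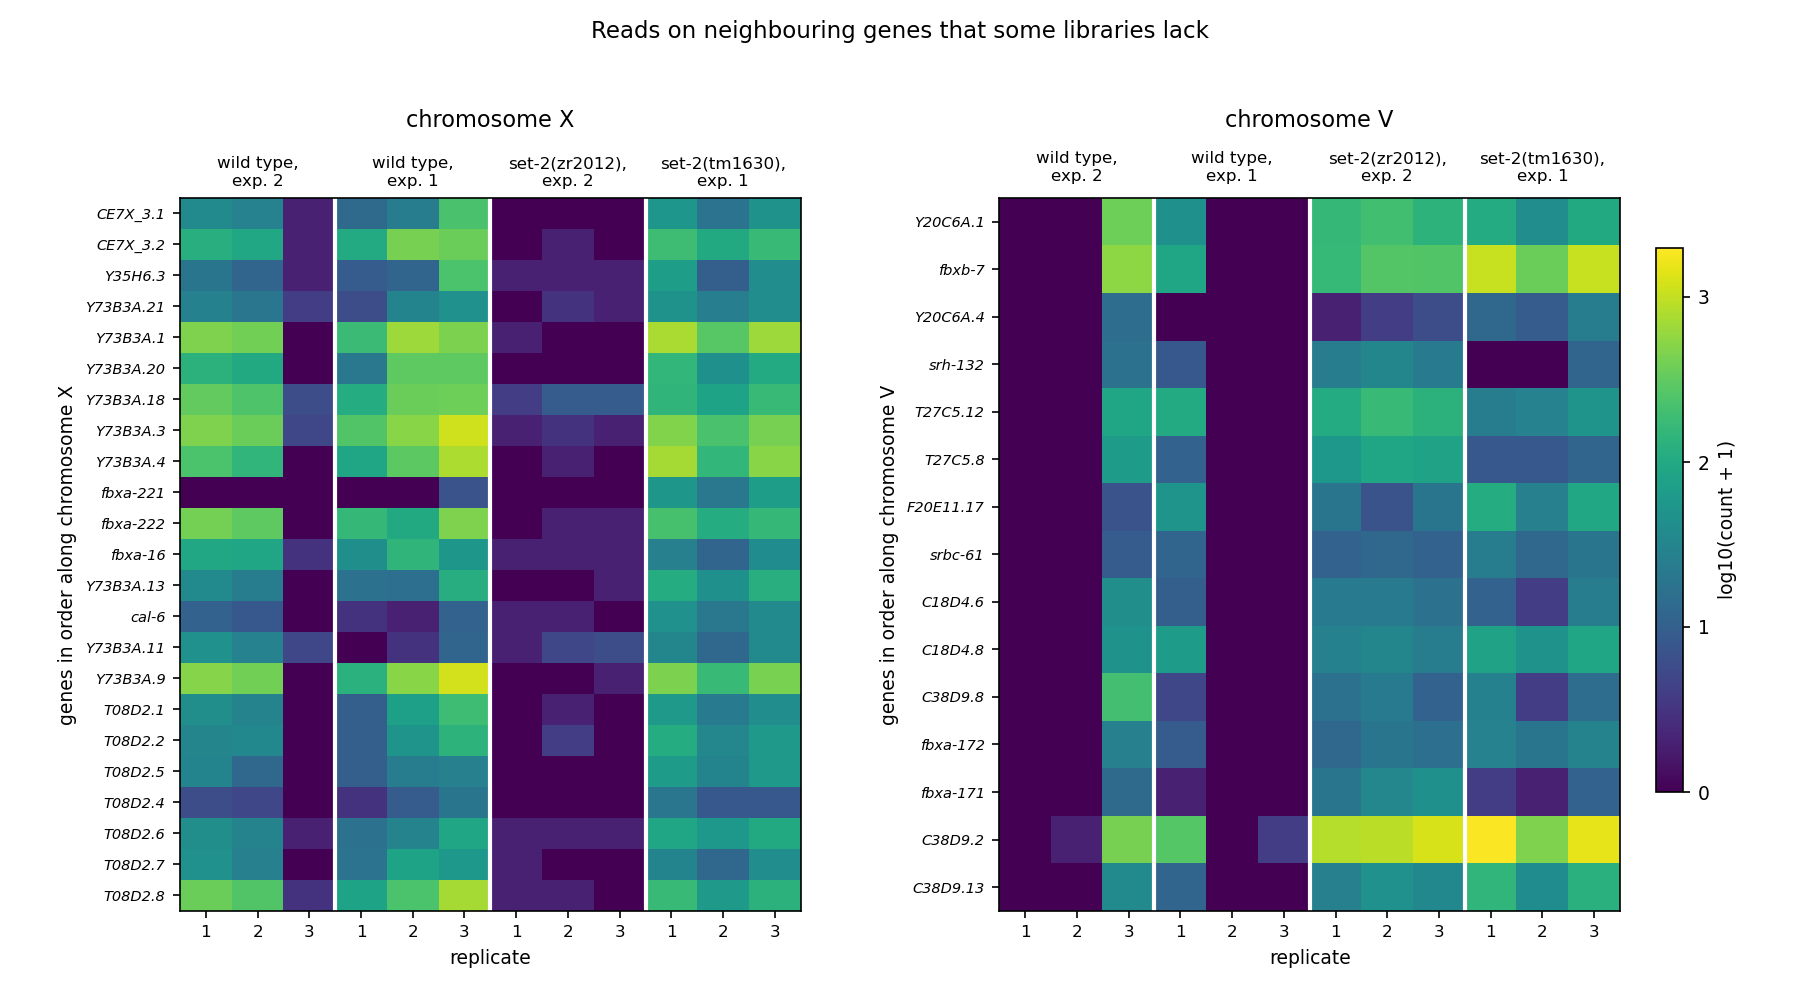
Reads on the 23 genes of the chromosome X stretch (left) and the 15 of the chromosome V stretch (right) that have at least 60 reads over the 12 libraries, as log10(count + 1), in gene order down the page and with a column per library. WT2 replicate 3 and the 3 set-2(zr2012) libraries are dark on X, and WT2 replicates 1 and 2 and WT1 replicates 2 and 3 are dark on V.

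Between the groups, the genes that passed the test were lower in WT2, and 3 of the 4 encode glutathione S-transferases. By the quasi-likelihood test of edgeR, with p adjusted by Benjamini-Hochberg over all genes and a threshold of 0.05, 4 of 16562 genes passed (0.0242%), all 4 lower in WT2 (0.0242%) and 0 higher (0%). At an unadjusted p under 0.05 there were 2321 genes, 1392 higher and 929 lower in WT2. The 2 groups of 3 did not overlap at 20.4% of genes, 10.9% higher and 9.49% lower in WT2. The median log2 difference of all genes was 0.03.

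gst-19, a glutathione S-transferase gene, had 1.41, 1.54 and 2.00 CPM in WT2, against 135.8, 55.3 and 229.6 CPM in WT1. Its log2 fold change was -6.40 ± 0.62 (SE; edgeR adjusted p = 0.0221), the largest of the 4. gst-4, another transferase and a widely used reporter of the oxidative stress factor SKN-1, had 24.6, 24.9 and 20.6 CPM in WT2, against 461, 289.5 and 373 CPM in WT1 (log2 fold change -4.002 ± 0.37, edgeR adjusted p = 0.0221). The 3 WT2 libraries were close together and the groups were far apart.

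R08E5.3, for which no role is given here, had 18.8, 20.5 and 20.6 CPM in WT2, against 697, 515 and 453 CPM in WT1 (log2 fold change -4.80 ± 0.39, edgeR adjusted p = 0.0175). gst-12, also a transferase, had 3.53, 4.12 and 4.32 CPM in WT2, against 66.0, 31.6 and 64.9 CPM in WT1 (log2 fold change -3.76 ± 0.42, edgeR adjusted p = 0.0465). For each of the 4 genes every WT2 library lay below every WT1 library. The transferases are a family of related genes, and how reads shared by close copies were counted is not given in the sources used here.

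With fewer libraries the 4 differences kept their direction but most calls were lost. Without WT2 replicate 3, without WT2 replicate 1 or without WT2 replicate 2, 0 genes passed in edgeR (2387, 980 and 975 at an unadjusted p under 0.05), and without both doubted libraries 0 passed as well (4480 unadjusted), with edgeR adjusted p of 0.0802 to 0.0803 for these 4. The 4 log2 fold changes without both were -6.66 for gst-19, -4.65 for R08E5.3, -3.78 for gst-4 and -3.71 for gst-12. Without WT1 replicate 1, 2 and 3 the genes passing were 3, 7 and 1. The DESeq2 Wald test passed 612 genes on the same 6 libraries (300 higher and 312 lower in WT2), among them these 4.

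The mutant libraries of each experiment were read at the same 4 genes, and their values are set side by side on a scale that holds all 12 libraries. gst-4 had 16.36, 15.1 and 14.8 CPM in set-2(zr2012) and 113.8, 154.0 and 107.5 CPM in set-2(tm1630). R08E5.3 had 17.4, 16.04 and 15.8 CPM in set-2(zr2012) and 35.9, 56.5 and 45.9 CPM in set-2(tm1630). gst-19 had 2.30, 2.62 and 2.38 CPM in set-2(zr2012) and 25.5, 58.3 and 25.5 CPM in set-2(tm1630). gst-12 had 3.72, 3.42 and 4.76 CPM in set-2(zr2012) and 8.23, 8.60 and 9.03 CPM in set-2(tm1630). In each of these 4 genes all set-2(zr2012) libraries lay below all set-2(tm1630) libraries, the same order as for the wild types. For gst-4, R08E5.3 and gst-12, set-2(tm1630) also lay below all of WT1 (at least 289.5, 453 and 31.6 CPM on the wild-type scale). For gst-19, set-2(tm1630) replicates 1 and 3 lay below all of WT1. Replicate 2 (58.3 CPM) was just above the lowest WT1 library (55.3 CPM on the wild-type scale). The 2 scales differ, so these values do not settle whether the groups overlapped. These values carry no test.

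Of 46 glutathione S-transferase genes in the files 40 were tested, of which 3 passed, all lower in WT2 (0.0242% of all genes), and 20 were lower with no overlap against 1 higher (9.49% and 10.9% of all genes). Their median log2 difference was -1.03, beside 0.03 for all genes. It was -0.71 without both doubted libraries. Other members did not pass but did not overlap either. gst-35 had 10.8, 11.2 and 11.2 CPM in WT2, against 91.3, 874 and 661.5 CPM in WT1 (edgeR adjusted p = 0.115). gst-7 had 80.4, 82.5 and 95.4 CPM in WT2, against 331, 363 and 574 CPM in WT1 (edgeR adjusted p = 0.115). In both genes the WT2 libraries were close to each other and below all of WT1. Other members did not share it: gst-36 had 108.0, 113.7 and 56.1 CPM in WT2, against 65.1, 59.3 and 41.98 CPM in WT1, with overlap.

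Among 12 genes of the hypoxia pathway, 1 passed, lower in WT2 (gst-19, which is on both lists), and 5 were lower with no overlap against 0 higher (0.0242% of all genes passed, 9.49% were lower and 10.9% higher with no overlap). The median log2 difference was -0.83. rhy-1, which restrains HIF-1 and is itself induced by it, had 15.2, 14.2 and 12.97 CPM in WT2, against 115.5, 88.1 and 515 CPM in WT1. Its log2 fold change was -4.08 ± 0.71, and it did not pass (edgeR adjusted p = 0.115). cysl-2, a cysteine synthase-like enzyme of the same pathway, had 58.5, 62.4 and 106.4 CPM in WT2, against 528, 409 and 643 CPM in WT1 (log2 fold change -2.80 ± 0.41, edgeR adjusted p = 0.115). sqrd-1, which oxidises hydrogen sulfide, had 13.8, 14.9 and 18.9 CPM in WT2, against 32.6, 51.1 and 100.2 CPM in WT1. The oxygen-sensing hydroxylase gene egl-9, by contrast, had 92.4, 96.6 and 71.9 CPM in WT2, against 46.3, 84.7 and 55.7 CPM in WT1, and the groups overlapped.

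**Figure D2:**
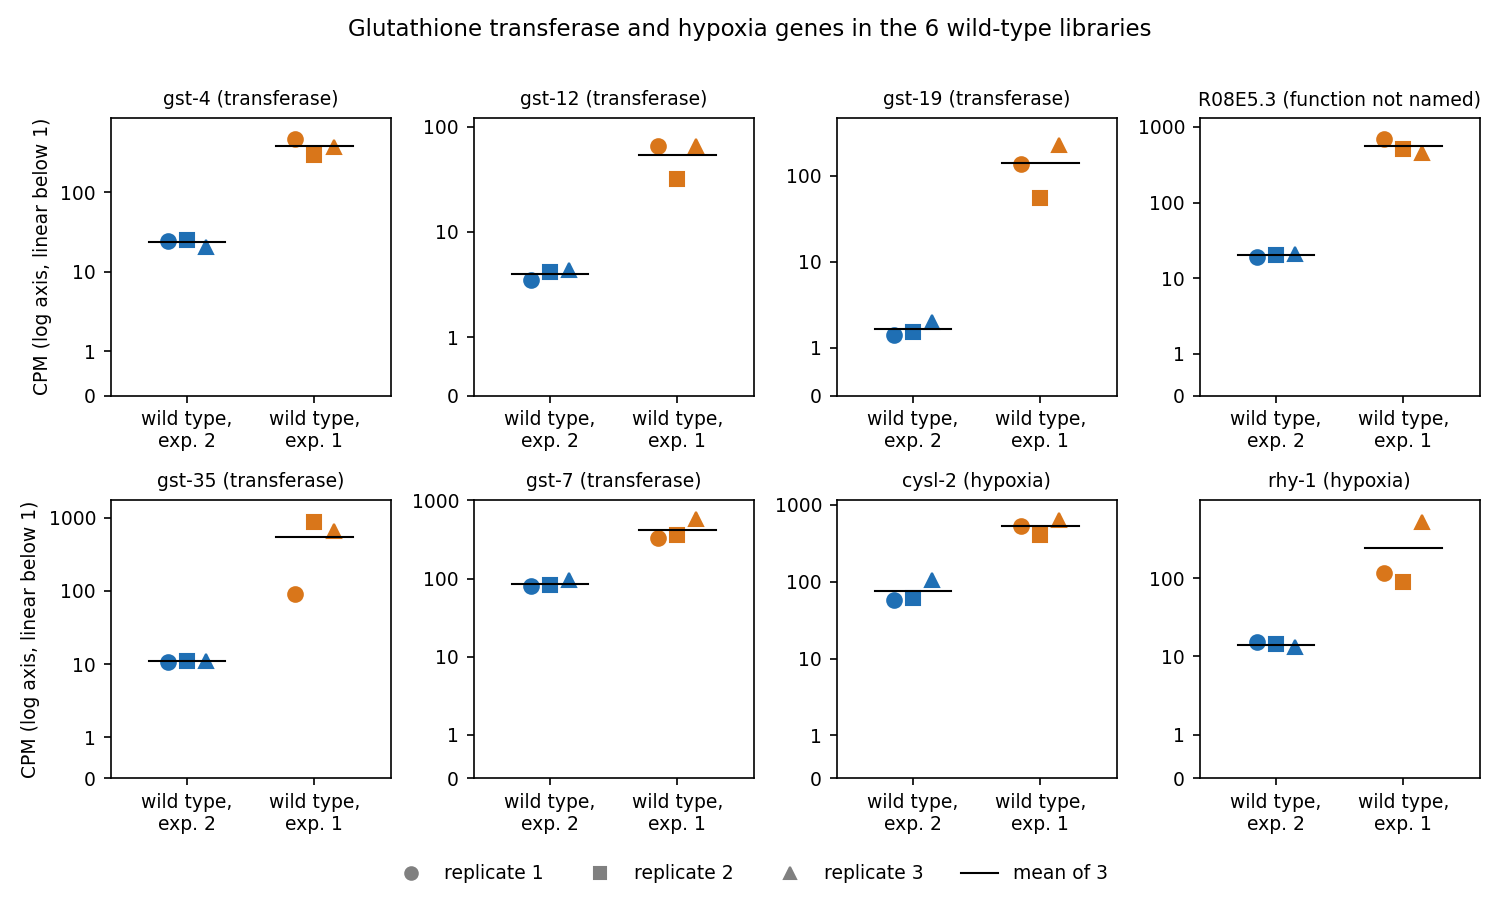
CPM (log axis, linear below 1) of the 4 genes that passed the test (top) and of 2 more transferases and 2 hypoxia genes that did not (bottom), each point a library and each line the mean of 3, with WT2 left and WT1 right. In all 8 panels every WT2 library is below every WT1 library, as for gst-4 with at most 24.9 CPM in WT2 and at least 289.5 CPM in WT1.

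Of the gene lists, that of the pharynx, the feeding organ, had the highest median log2 difference in the comparison as reported. The early zygotic list was above it with the DESeq2 Wald test (2.52 against 2.01) and no count filter (2.37 against 2.05). It was also above without WT2 replicate 1 (2.06 against 1.97). Of 12 pharynx genes tested, 0 passed in edgeR (9 at an unadjusted p under 0.05, all 9 higher). Of these 12, 9 were higher in WT2 with no overlap against 0 lower (10.9% and 9.49% of all genes). The median log2 difference was 2.17, and 2.46 without both doubted libraries. myo-2, a myosin heavy chain of pharyngeal muscle, had 2227, 2328 and 666 CPM in WT2, against 327, 368 and 496 CPM in WT1. Its log2 fold change was 2.13 ± 0.56 (edgeR adjusted p = 0.218). myo-1, the other pharyngeal myosin, had 1728, 1791 and 489 CPM in WT2, against 276, 273 and 362 CPM in WT1. WT2 replicate 3 lay in both genes near WT1 and far below its group mates.

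The lining of the pharynx gave the same order. abu-8, of the family of pharyngeal cuticle proteins, had 520, 507 and 86.9 CPM in WT2, against 54.3, 55.1 and 64.9 CPM in WT1, and abu-10 had 221.9, 219.9 and 37.6 CPM in WT2, against 27.3, 23.9 and 23.1 CPM in WT1. The transporter gene pgp-14 had 136.8, 132.9 and 32.9 CPM in WT2, against 15.04, 16.13 and 13.1 CPM in WT1. Replicates 1 and 2 of WT2 stood high, replicate 3 stood between them and WT1, and the 3 WT1 libraries were close together. The list as a whole showed this in its median deviation from the 6-library mean, at 1.54, 1.602 and -0.27 in WT2, against -1.04, -1.03 and -1.14 in WT1 on the log2 scale.

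In body-wall muscle the values were nearer to each other. Of 26 muscle genes 0 passed in edgeR (5 at an unadjusted p under 0.05), and 4 were higher and 1 lower in WT2 with no overlap (10.9% and 9.49% of all genes). Their median log2 difference was 0.16, or 0.08 without both doubted libraries. unc-54, the main body-wall myosin, had 2964, 3099 and 1614 CPM in WT2, against 1380, 1733 and 2075 CPM in WT1, and myo-3, the second body-wall myosin, had 2177, 2284 and 1440 CPM in WT2, against 872, 1546 and 1617 CPM in WT1. In both the groups overlapped, with WT2 replicate 3 among the WT1 libraries.

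Genes of the neuron's synapse lay on the higher side in WT2. Of 31 tested 0 passed in edgeR (7 at an unadjusted p under 0.05), while 10 were higher and 1 lower in WT2 with no overlap (10.9% and 9.49% of all genes), and the median log2 difference was 0.68 (1.04 without both doubted libraries). unc-13, needed for vesicle priming, had 375, 375 and 296 CPM in WT2, against 145.6, 188.9 and 240.7 CPM in WT1. unc-2, a calcium channel subunit of the synapse, had 325, 327 and 229.2 CPM in WT2, against 70.5, 142.1 and 147.0 CPM in WT1. rab-3, a vesicle protein, overlapped, with 186.9, 178.9 and 85.8 CPM in WT2 and 116.2, 80.4 and 59.7 CPM in WT1. snb-1, the synaptobrevin of the same vesicles, was the 1 member lower, with 242.9, 247.8 and 223.4 CPM in WT2, against 537, 307 and 329 CPM in WT1.

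The study is about how neurons grow, and of the axon guidance genes none passed the test in these 6 libraries. Of 34 tested, 0 passed in edgeR (1 at an unadjusted p under 0.05), 1 was lower and 0 were higher in WT2 with no overlap (9.49% and 10.9% of all genes). The median log2 difference was 0.00, with 17 of the 34 above 0, and it was -0.14 without WT1 replicate 1 and 0.27 without WT1 replicate 2. unc-6, the netrin, had 156.8, 151.1 and 163.4 CPM in WT2, against 134.5, 233.9 and 93.6 CPM in WT1. vab-1, the ephrin receptor, had 381, 381 and 461 CPM in WT2, against 169.9, 659 and 437 CPM in WT1. sax-3, the Robo receptor, had 318, 325 and 414 CPM in WT2, against 120.9, 528 and 304 CPM in WT1. For all 3 the WT1 libraries enclosed the WT2 libraries, and the median SD of log2 CPM over the list was 0.15 in WT2 and 0.67 in WT1. Of the 36 tested genes of the sensory cilium 0 passed in edgeR (3 at an unadjusted p under 0.05), and 7 were higher and 0 lower in WT2 with no overlap (10.9% and 9.49% of all genes). Their median log2 difference was 0.17, or 0.08 without both doubted libraries.

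Marks of the young embryo came mostly from 1 library. Of 18 early zygotic genes only 9 were above the count minimum, 0 of them passed in edgeR (3 at an unadjusted p under 0.05), and the median log2 difference of those 9 was 1.73. Without WT2 replicate 3 it was 0.70, over the 8 genes above the minimum in that fit. pes-10, one of the first genes the embryo transcribes, had 1.00, 1.21 and 31.3 CPM in WT2, against 0.59, 0.00 and 0.22 CPM in WT1. WT2 replicate 3 was high alone. Below the minimum, the T-box genes tbx-37 and tbx-38 had 1, 2 and 158 reads and 5, 9 and 203 reads in WT2, against 3, 4 and 1 and 1, 1 and 1 reads in WT1. end-1, a GATA factor of the gut founder cell, had 6, 0 and 125 reads in WT2, against 3, 2 and 4 reads in WT1. The other gut factor end-3 went otherwise, with 0.29, 0.37 and 1.80 CPM in WT2 and 1.17, 0.69 and 7.81 CPM in WT1, where WT1 replicate 3 was highest.

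RNA from the mother was likewise highest in WT2 replicate 3. oma-1, an oocyte zinc-finger protein, had 5.78, 6.70 and 49.96 CPM in WT2, against 1.86, 1.46 and 7.70 CPM in WT1. pos-1, which sets cell fate in the first divisions, had 18.5, 22.03 and 172.0 CPM in WT2, against 7.67, 1.12 and 29.5 CPM in WT1, and mex-5, an early polarity gene, had 14.7, 17.2 and 84.2 CPM in WT2, against 5.62, 2.68 and 19.9 CPM in WT1. In WT1 it was replicate 3 that stood highest for these 3. egg-1, an oocyte surface receptor, was low throughout, with 1.93, 1.87 and 3.69 CPM in WT2 and 1.32, 2.22 and 1.78 CPM in WT1. Of 19 oocyte and eggshell genes 0 passed in edgeR (5 at an unadjusted p under 0.05), 6 were higher in WT2 with no overlap and 0 lower (10.9% and 9.49% of all genes), and the median log2 difference was 0.56, or -0.10 without both doubted libraries. Of 21 maternal regulators 0 passed in edgeR (5 at an unadjusted p under 0.05), with a median of 0.50, or 0.07 without both.

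DNA replication and cell division genes divided both groups from within. mcm-7, a subunit of the replicative helicase, had 24.9, 28.2 and 234.8 CPM in WT2, against 23.6, 16.8 and 71.3 CPM in WT1. pcn-1, the sliding clamp PCNA, had 26.9, 26.9 and 180.8 CPM in WT2, against 33.4, 16.3 and 59.5 CPM in WT1. cyb-1, a mitotic cyclin, had 31.2, 33.4 and 216.1 CPM in WT2, against 32.9, 48.3 and 104.1 CPM in WT1. Replicate 3 was highest in each group for all 3 genes. The same held for cdc-6, plk-1 and air-2, but there WT2 replicate 3 and WT1 replicate 3 were near each other. cdc-6 had 25.8, 25.8 and 58.2 CPM in WT2, against 19.4, 24.8 and 69.45 CPM in WT1. plk-1 had 22.7, 24.3 and 114.3 CPM in WT2, against 32.9, 36.9 and 117.7 CPM in WT1. air-2 had 8.60, 7.62 and 34.4 CPM in WT2, against 10.2, 12.9 and 32.2 CPM in WT1. Over 23 replication genes the median deviation was -0.43, -0.41 and 1.34 in WT2, against -0.58, -0.50 and 0.80 in WT1, and over 52 cell division genes it was -0.43, -0.36 and 0.94 in WT2, against -0.79, -0.25 and 0.92 in WT1. Between the groups 0 of the 23 passed in edgeR (0 at an unadjusted p under 0.05) and 0 of the 52 (2 at an unadjusted p under 0.05). The medians were 0.41 and 0.00 with all libraries and -0.82 and -0.99 without both doubted libraries, so the direction for these lists turned on which libraries were kept.

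**Figure D3:**
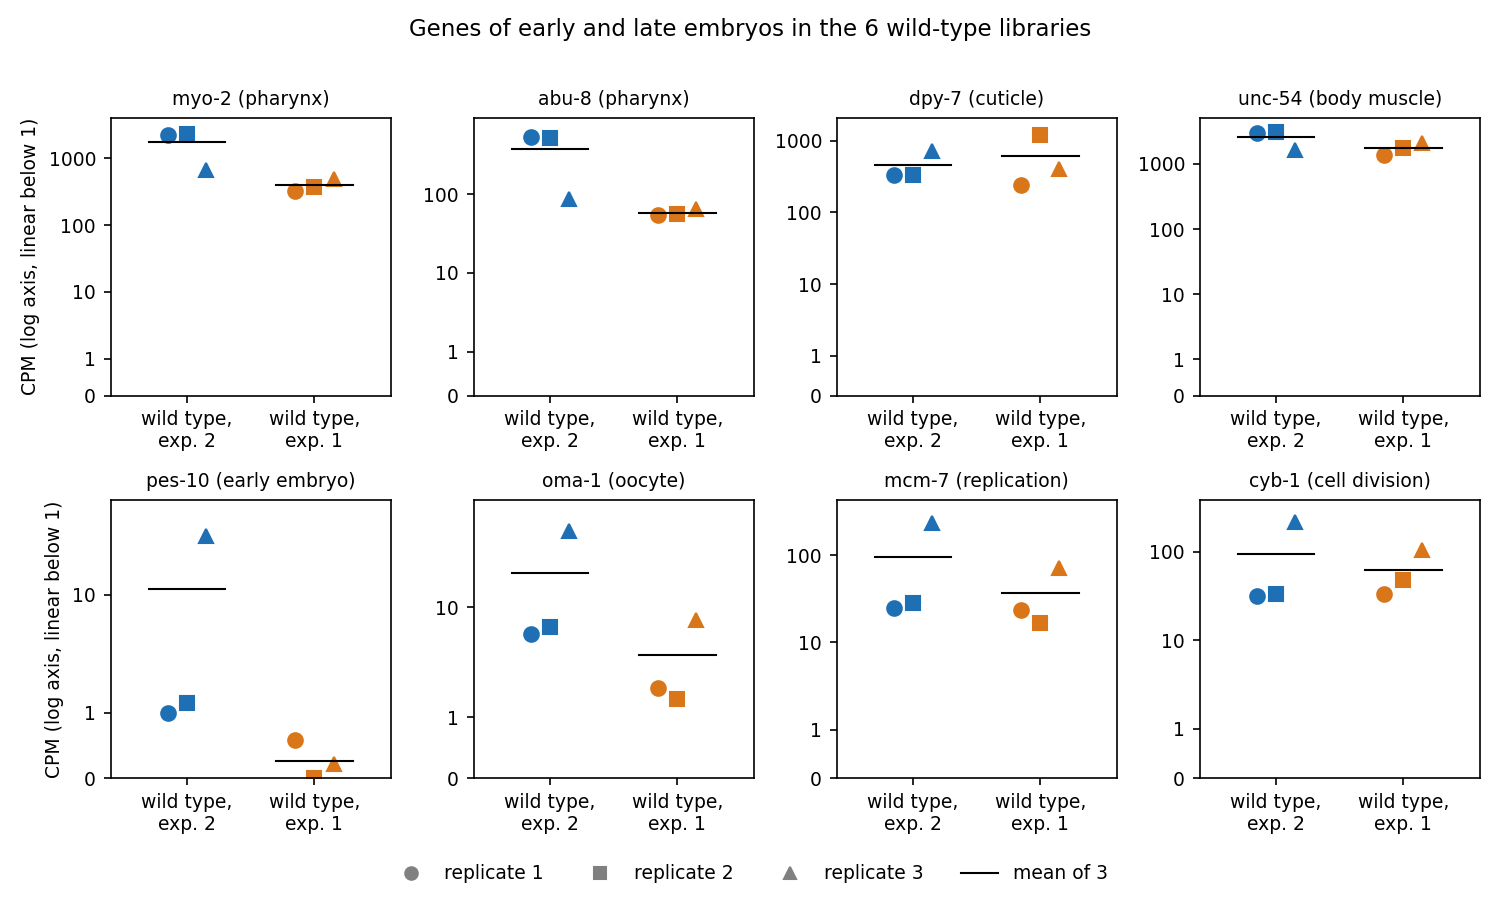
CPM (log axis, linear below 1) of genes known from late (top) and early (bottom) embryos, each point a library and each line the mean of 3, with WT2 left and WT1 right. The triangles of WT2 replicate 3 are below their group mates but above WT1 for myo-2 (666 CPM) and abu-8 (86.9 CPM). For dpy-7 (723 CPM) the triangle is above its group mates. The triangles are highest of the 6 for pes-10 (31.3 CPM), oma-1 (49.96 CPM), mcm-7 (234.8 CPM) and cyb-1 (216.1 CPM). The replication gene cdc-6 and the division gene plk-1, not drawn, were highest in WT1 replicate 3.

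Epidermal and cuticle genes had no common direction between the groups. Of 26 cuticle genes 0 passed in edgeR (2 at an unadjusted p under 0.05), 4 were higher and 2 lower in WT2 with no overlap (10.9% and 9.49% of all genes), and the median log2 difference was -0.42, or 0.02 without WT1 replicate 2 and -0.63 without both doubted libraries. dpy-7, a cuticle collagen of the epidermis, had 330, 329 and 723 CPM in WT2, against 241.9, 1219 and 398 CPM in WT1. noah-1, of the embryo's outer sheath, had 403, 388 and 1177 CPM in WT2, against 541, 1527 and 1546 CPM in WT1. WT1 replicate 2 was highest for dpy-7 and among the highest for noah-1, and over the list its median deviation was 0.77, where the other 5 libraries lay between -0.49 and 0.27. Of 65 hedgehog-related genes, which encode secreted proteins and patched-like receptors, 0 passed in edgeR (14 at an unadjusted p under 0.05), 9 were higher and 1 lower in WT2 with no overlap (10.9% and 9.49% of all genes), and WT1 replicate 3 lay lowest with a median deviation of -1.34. The median log2 difference was 0.40, or 0.81 without both doubted libraries.

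WT1 replicate 1 stood apart in short genes. The 70 tested ribosomal protein genes had a median log2 difference of -0.99, with 0 passing in edgeR (4 at an unadjusted p under 0.05) and 11 lower and 0 higher in WT2 with no overlap (9.49% and 10.9% of all genes). The median was -0.28 without WT1 replicate 1. rpl-10, a protein of the large subunit, had 2158, 2178 and 2512 CPM in WT2, against 11800, 2939 and 2572 CPM in WT1. rps-16, of the small subunit, had 1164, 1215 and 1497 CPM in WT2, against 10840, 1961 and 1310 CPM in WT1. Only WT1 replicate 1 was far from the other 5 in both. Histone genes (28 tested, 0 passing in edgeR, 0 at an unadjusted p under 0.05) had a median deviation of 1.24 in that library, and between -0.73 and 0.20 in the other 5. Their median log2 difference was -0.34, or 0.53 without both doubted libraries.

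A measure taken over all genes went the same way. Across 15874 tested genes with a known length of the gene on the chromosome (95.8% of those tested), the deviation of WT1 replicate 1 had a rank correlation with that length of -0.36, given as a description since genes are not independent replicates. In that library the genes of up to 1305 bases had a median deviation of 0.40 and those of 4003 bases or more -0.40. In the other 5 libraries the correlation was between 0.04 and 0.18. The library had 7.83% of its reads on its 10 most read rows, against 4.19 to 5.02% in the other 5, and its part in the differences of short genes was not tested.

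Neuropeptide genes were high in WT1 replicate 1 and in WT2 replicates 1 and 2. Of 92 tested 0 passed in edgeR (10 at an unadjusted p under 0.05), 0 were higher and 7 lower in WT2 with no overlap (10.9% and 9.49% of all genes), and the median deviation was 0.61, 0.59 and -0.64 in WT2, against 1.16, -0.87 and -0.74 in WT1. The median log2 difference was 0.06, or 1.39 without both doubted libraries. The share lower is below that of all genes. As single values, the antimicrobial-like peptide nlp-31 had 42.9, 37.98 and 55.2 CPM in WT2, against 305, 126.1 and 413 CPM in WT1. nlp-34 of the same kind had 40.8, 40.98 and 16.46 CPM in WT2, against 537, 61.4 and 233.1 CPM in WT1. The insulin-like ins-13 was at 0.22, 0.21 and 0.14 CPM in WT2, against 1.86, 1.86 and 2.15 CPM in WT1. None of the 3 passed (edgeR adjusted p of 0.138, 0.205 and 0.115).

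**Figure D4:**
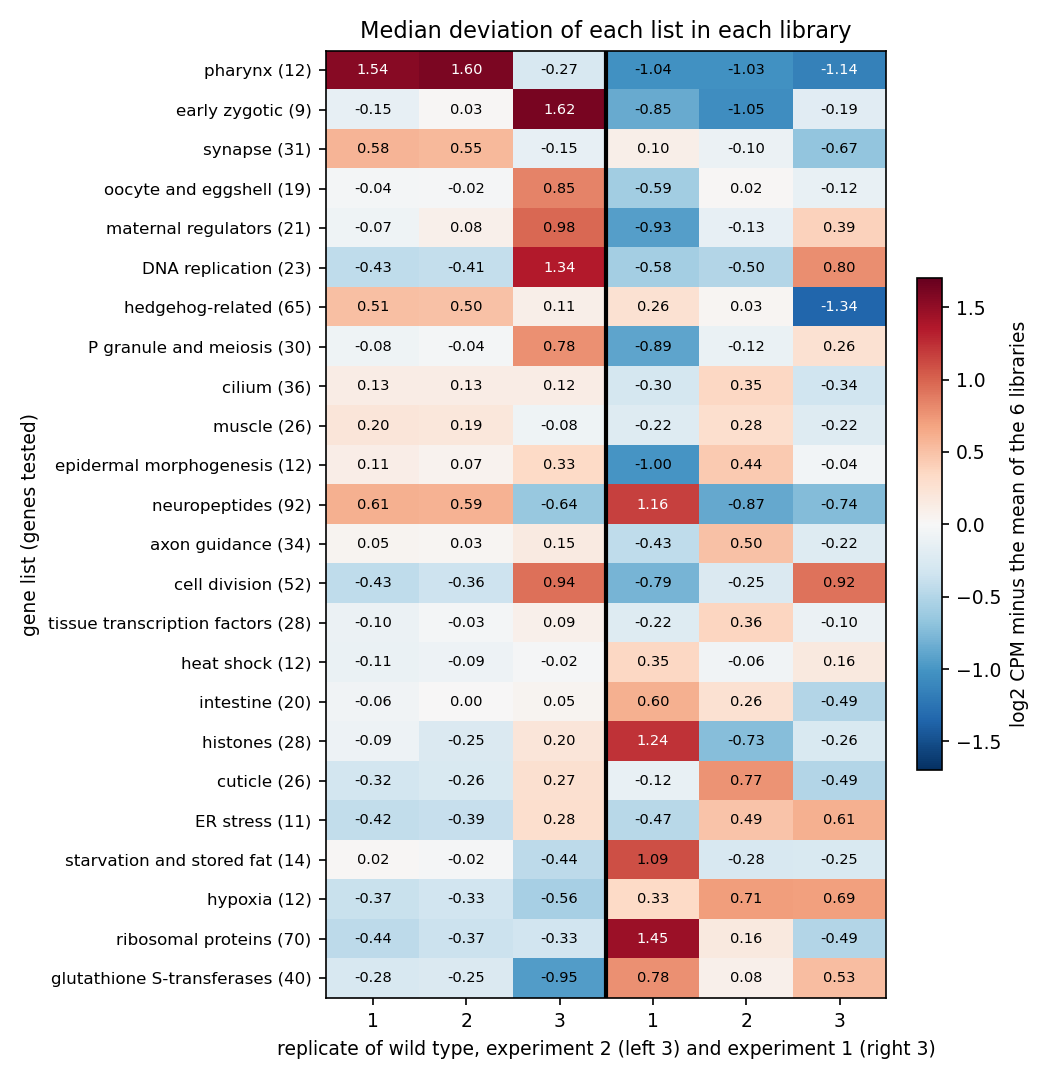
Median deviation of log2 CPM from the mean of the 6 libraries, for each gene list with at least 9 genes tested (number in brackets), in the 3 WT2 libraries (left) and the 3 WT1 libraries (right), with lists ordered from the highest to the lowest median log2 difference. The pharynx list is high in WT2 replicates 1 and 2 (1.54 and 1.602), the early zygotic and replication lists in WT2 replicate 3 (1.62 and 1.34) and the ribosomal protein list in WT1 replicate 1 (1.45).

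Heat shock genes differed from library to library. hsp-16.2, a small heat shock protein, had 18.4, 18.4 and 94.4 CPM in WT2, against 44.7, 3.50 and 9.06 CPM in WT1, and hsp-16.41 had 23.2, 23.3 and 113.9 CPM in WT2, against 61.4, 3.42 and 4.67 CPM in WT1. WT2 replicate 3 and WT1 replicate 1 were the 2 highest of the wild-type libraries for both genes. The mutants stood far above all 6: on the 12-library scale hsp-16.2 had 7408, 8536 and 8189 CPM in set-2(zr2012) and 384.5, 456 and 363 CPM in set-2(tm1630). What these values mean for the label of any library was not tested. hsp-70, an inducible chaperone, had 6.10, 6.33 and 10.04 CPM in WT2, against 5.08, 1.17 and 4.22 CPM in WT1, without overlap. Of 12 tested 0 passed in edgeR (1 at an unadjusted p under 0.05), 1 was higher and 2 were lower in WT2 with no overlap (10.9% and 9.49% of all genes), and the median log2 difference was -0.12, or -0.31 without both doubted libraries. The chaperone hsp-4, induced when proteins misfold in the endoplasmic reticulum, had 149.4, 152.4 and 163.3 CPM in WT2, against 163.5, 225.3 and 280.3 CPM in WT1, and of 11 genes of that response 0 passed in edgeR (0 at an unadjusted p under 0.05), with a median log2 difference of -0.43, or -0.86 without both doubted libraries. Of 14 starvation and fat genes 0 passed in edgeR (3 at an unadjusted p under 0.05). acs-2, which readies fatty acids for breakdown, had 19.6, 21.03 and 13.3 CPM in WT2, against 52.7, 22.8 and 82.0 CPM in WT1, without overlap, and the list's median log2 difference was -0.49, or 0.38 without both doubted libraries.

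In the gut, elt-2, the GATA factor of intestinal cells, had 20.8, 24.1 and 48.2 CPM in WT2, against 51.3, 50.3 and 36.3 CPM in WT1. ges-1, a gut esterase, had 17.3, 15.7 and 22.2 CPM in WT2, against 23.9, 36.7 and 22.8 CPM in WT1. act-5, the actin of the gut's microvilli, had 425, 432 and 416 CPM in WT2, against 1145, 575 and 298 CPM in WT1. For act-5 the 3 WT2 libraries were close together while WT1 spread on both sides. Over 20 intestine genes 0 passed in edgeR (1 at an unadjusted p under 0.05), with a median log2 difference of -0.30. It was -0.08 without WT1 replicate 1, -0.51 without WT1 replicate 3 and -0.04 without both doubted libraries. Of 28 factors that fix tissue identity 0 passed in edgeR (0 at an unadjusted p under 0.05), with a median log2 difference of -0.07 (-0.29 without both doubted libraries) and a median SD of log2 CPM of 0.15 in WT2 and 0.47 in WT1. In the germ line, glh-1, a P granule helicase, had 48.1, 51.4 and 65.7 CPM in WT2, against 21.5, 41.5 and 46.3 CPM in WT1. Of 30 P granule and meiosis genes 0 passed in edgeR (3 at an unadjusted p under 0.05), with a median log2 difference of 0.34, or -0.22 without both doubted libraries.

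Replicates of the same wild type spread over a wide range, more so in WT1. The common biological coefficient of variation, edgeR's measure of spread beyond counting noise, was 36.4% in WT2 and 59.3% in WT1. The median SD of log2 CPM was 0.35 in WT2 and 0.68 in WT1, and the SD was larger in WT2 for 23.2% of genes and in WT1 for 76.8%. WT2 replicates 1 and 2 were nearly the same, with 226 genes (1.36%) at least 2-fold apart and a chi-square of their counts of 2.34 per degree of freedom. They were counted as 2 replicates because their counts differed by more than sampling noise, but 2 preparations of 1 RNA would too. The paper states that RNA came from 3 independent experiments per genotype. Whether these 2 libraries are separate cultures is not given by the labels and was not tested. With either of these 2 libraries left out 0 genes passed, as given above, and the same held without WT2 replicate 3. The 4 calls thus needed all 3 WT2 libraries, with replicates 1 and 2 counted as 2. In the other 5 within-group pairs the chi-square was 199 to 969 per degree of freedom. WT2 replicate 3 was the library farthest from its group mates at 80.1% of genes, and without it the WT2 coefficient of variation was 0.033 as a fraction (0.364 with it).

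Apart from WT2 replicates 1 and 2, the distances within a group overlapped those across the experiments. On a single axis the groups did part. The first principal component of 500 genes, which held 48.5% of their variance, was 26.95, 26.48 and 32.21 in WT2, against -9.86, -35.72 and -40.06 in WT1. WT2 replicate 3 differed at least 2-fold from its group mates at 4315 and 4174 of the 16562 genes, and the WT1 libraries differed from each other at 34.4 to 48.3%. Between a WT2 and a WT1 library the share was 19.6% at the lowest, for WT2 replicate 3 and WT1 replicate 2, and 47.02% at the highest, for WT2 replicate 1 and WT1 replicate 3. In WT1 replicates 1, 2 and 3 were the farthest library at 39.1%, 22.8% and 38.1% of genes. Across all genes of the 12-library scale, the Pearson correlation of WT2 replicate 3 was 0.947 and 0.948 with its group mates and 0.966, 0.966 and 0.961 with the set-2(zr2012) libraries. WT2 replicates 1 and 2, at 0.994 with each other, likewise had 0.954 to 0.960 with set-2(zr2012), above their value with replicate 3. WT1 replicate 3 had 0.910 with WT1 replicate 1, 0.936 with WT1 replicate 2 and 0.914 to 0.930 with set-2(tm1630). WT1 replicates 1 and 2 were farther from set-2(tm1630), at 0.833 to 0.855 and 0.846 to 0.869. The doubted libraries are named for the stretches of genes, not for these values. These are descriptions without a test.

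**Figure D5:**
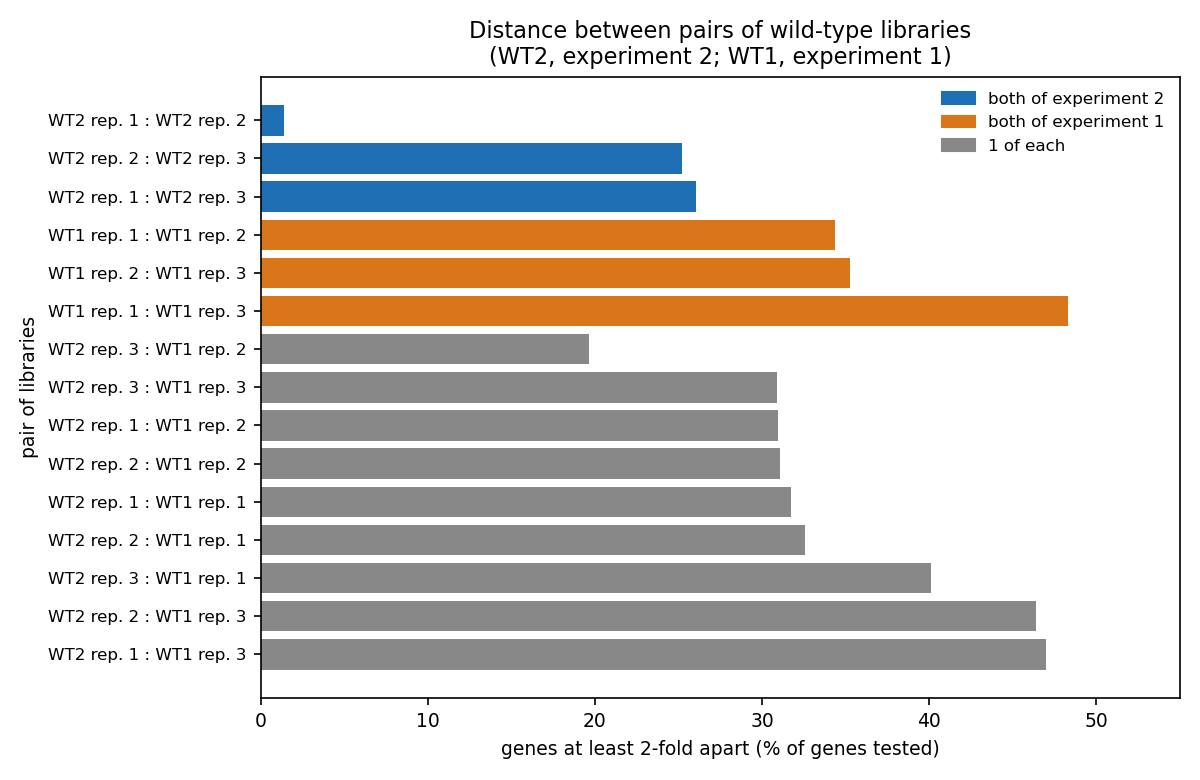
Share of the 16562 tested genes at least 2-fold apart in CPM for each of the 15 pairs of wild-type libraries, both of WT2 (blue), both of WT1 (orange) or 1 of each (grey). The shortest bar is WT2 replicates 1 and 2 (1.36%). The grey bars (19.6 to 47.02%) overlap the orange ones (34.4 to 48.3%), and most grey bars are shorter than any orange one.

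The genes that varied most inside WT2 were, with 1 exception, those of the empty stretch on chromosome X: Y73B3A.9, Y73B3A.1, fbxa-222, Y73B3A.4 and T08D2.8 (SD of log2 CPM of 3.90 to 4.72). Of the 6 genes with the largest SD, the exception was cyp-13A11, a cytochrome P450 on chromosome III, with 42.2, 42.98 and 0.07 CPM in WT2 and 0.05, 0.18 and 0.38 CPM in WT1. Of the wild-type libraries only WT2 replicates 1 and 2 had more than 1 CPM, and it was at 3.95 to 6.22 CPM in set-2(zr2012) and 0.00 to 0.06 CPM in set-2(tm1630).

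By the same rule, the genes that varied most inside WT1 were others. C49G7.12 had 1.09, 1.33 and 1.40 CPM in WT2, against 19.7, 0.38 and 321 CPM in WT1, and C49G7.7, on the same chromosome (V), had 0.29, 0.62 and 0.68 CPM in WT2, against 2.73, 0.38 and 64.7 CPM in WT1. Y39A3A.4 had 0.55, 0.75 and 0.50 CPM in WT2, against 3.22, 0.13 and 32.1 CPM in WT1. Within WT1 all 3 were highest in replicate 3 and lowest in replicate 2. In every WT2 library they were at 1.40 CPM or below, where counting error is larger. In set-2(tm1630) they were at 391 to 450 CPM, 150.4 to 192.5 CPM and 44.5 to 51.4 CPM. F15E6.10 went the other way, with 43.2, 48.98 and 32.1 CPM in WT2, against 109.1, 11.03 and 0.48 CPM in WT1. F56D6.9 had 5.14, 5.04 and 1.598 CPM in WT2, against 31.2, 0.33 and 0.20 CPM in WT1, and D1086.9 had 4.46, 5.04 and 0.14 CPM in WT2, against 28.8, 0.13 and 3.63 CPM in WT1. No role of these 6 is given here.

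set-2 itself, the histone methyltransferase gene mutated in the study, could not be judged from its row, which held 0.29, 0.54 and 0.38 CPM in WT2, against 0.05, 0.28 and 0.81 CPM in WT1, since the gene also has 2 accession rows.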

How the data were processed

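The authors deposited raw read counts per feature, 1 file per library, made with their own pipeline. Per the submitters' processing notes the tools were Trimmomatic 0.36.0, HTSeq 0.9.1 and DESeq2 2.1.8.3 with build ce10. The aligner and the strand setting are not given in the sources used here. Counts were joined by row, with 0 rows that name no feature, and groups were taken from the sample titles. Gene names were matched to RefSeq WBcel235.

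Features that reached 10 counts in 3 or more wild-type libraries were fitted in edgeR 4.0.16 (R 4.3.3), using TMM scaling and its quasi-likelihood test, as WT2 minus WT1. P-values were adjusted by Benjamini-Hochberg over all of them (threshold 0.05). No block was used. Log2 CPM had a prior count of 2. The script was tested on simulated counts. Alternatives were DESeq2 1.42.0, limma 3.58.1, other filters, scaling and features, a replicate block, all 12 libraries, and fits without each library. In fits without a library the count minimum was applied again, so the genes tested could change.

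Stretches without reads were runs of at least 4 neighbouring genes, each with at least 20 reads expected from the median CPM of the 12 libraries and under 1 in 20 of that found.

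Members and lists were chosen with earlier results of these data known. Genes were named by rule: called genes that averaged 100 counts or more without overlap (up to 8 each way), the first 3 of each list, the 6 with the largest SD in each group, and set-2. Not every gene of this rule is shown: chs-1, let-502, snt-1, osm-6, che-2, bbs-8, syp-1, hsp-3, fat-7 and vit-1 had values but are left out above. The other genes named were chosen after their values were seen. The genes shown are therefore not a choice made blind to the values.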

Additional observations from a re-analysis of the deposited data

How the results depend on the processing

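The 4 genes that passed kept their direction in all 15 alternatives and passed in 7 (gst-12) to 11 (R08E5.3) of them. The number of genes passing was less stable than the direction: 4 in the comparison as reported, 612 with the DESeq2 Wald test (300 higher and 312 lower in WT2), 248 with no count filter (106 and 142), 1535 with all 12 libraries in 1 fit (815 and 720) and 0 to 7, all lower, with 1 library left out. It was 0 without WT2 replicate 3 and WT1 replicate 1 together, an alternative chosen after seeing the data. Of the list genes 3 passed as reported, 42 with the DESeq2 Wald test, 32 with no filter, 75 with all 12 libraries, 0 to 3 with 1 library left out and 0 without both. Adding accession rows to their gene, also chosen after seeing the data, left 4 passing.

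The replicate numbers come from separate experiments, and no label pairs the samples. Same-numbered libraries deviated together with r of 0.44, -0.13 and 0.33 across genes. Libraries of different numbers had r of -0.46 to 0.39. These values cannot settle whether the numbers mark a pairing, since genes are not independent. With the replicate block 18 genes passed, 5 higher and 13 lower in WT2. The block moved the median of all genes to 0.14, as did limma-trend.

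The WT2 coefficient of variation was 0.033 without WT2 replicate 3 and 0.032 without both, and its median SD 0.0625 to 0.392 with 1 library left out and 0.060 without both. The WT1 median SD was 0.568 with no filter, 0.486 to 0.682 with 1 library left out and 0.494 without both. Of 400 list medians 92 were counted as moved, by a yardstick that is not given here. Some of these moves were small beside the spread between replicates. The cilium median went from 0.17 to 0.11 with DESeq2 scaling and was counted, where the list's deviations in WT1 were -0.30, 0.35 and -0.34. Of 760 fits of named genes 663 kept direction and side of the threshold, 23 no longer passed, 27 came to pass, and 47 that did not pass changed sign. The cause of these changes was not tested. At a depth of 21731533 to 53080992 reads counting error is small beside the spread between libraries, except between WT2 replicates 1 and 2 (chi-square of 2.34 per degree of freedom) and for genes near 1 CPM.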
